A study of Homo sapiens with 6 samples.

Results

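Far intergenic peaks were the poly(A) 3′-seq peaks of IMR-32 cells, a human neuroblastoma line, whose summit lay more than 20 kb from every annotated gene body of any type. They were chosen by position alone, on chromosomes 1 to 22 and X, leaving out 2 intervals of chromosome 2 (14.5 to 16 Mb and 66.4 to 67.6 Mb). The rule found 3638 far intergenic peaks among the 198956 peaks on these chromosomes and the 200023 peaks of the whole list. The 6 libraries were 2 from cells in DMSO, the solvent, and 2 each from cells exposed to THZ531 at 400 nM during 2 h or 6 h. This compound binds CDK12 and CDK13 covalently and blocks them, and both are kinases of the elongating RNA polymerase II. Peaks were called once on merged reads, taken here to be those of the 6 libraries, and the list gives neither strand nor separate values by library. No treatment could be compared with DMSO, no peak has a replicate error, the depth of each library is unknown, and the intervals below cover counting error only.

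Most messenger RNAs and many long noncoding RNAs end by cleavage and polyadenylation. The machinery binds a short signal in the RNA, most often the hexamer written AATAAA in the DNA, a little before the cleavage site, and a poly(A) tail is then added. The libraries were primed with oligo(dT), which also anneals to A-rich stretches inside an RNA or in genomic DNA. A peak far from genes can thus mark the end of an unannotated transcript, priming within one, or a read placed on a copy of another sequence. Alu and L1 elements, the most abundant retrotransposons of the human genome, carry such A-rich tails at their 3′ ends.

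The sequences that recur in the text are shown 5′ to 3′ on the strand read, in GRCh38 coordinates. The first 4 come from the peaks of highest significance that hold the hexamer at the distance from an edge where cleavage signals lie, 1 without any near-identical copy (chromosome 2) and 3 with copies elsewhere in the genome (chromosomes 4, 10 and X, of which 30 bases are given). Capitals mark the hexamer.
chr2:17185346-17185445 (minus): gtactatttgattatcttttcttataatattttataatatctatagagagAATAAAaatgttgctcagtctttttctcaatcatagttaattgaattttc
chr4:132528172-132528201 (plus): attttgagacccATTAAAaaagttaaatga
chr10:127524834-127524863 (plus): attttgagacccATTAAAaaagtttaatga
chrX:44794878-44794907 (plus): tgagaccagttgAATAAAagtgcacacctt
The next one comes from the longest run of far intergenic peaks, on chromosome 6, and holds both hexamers.
chr6:120051837-120051936 (plus): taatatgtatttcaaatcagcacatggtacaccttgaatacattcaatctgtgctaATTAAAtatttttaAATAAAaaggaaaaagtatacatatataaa

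Far intergenic peaks were sparse. The sequence more than 20 kb from any gene body made up 594.2 Mb without unknown bases, 20.4% of the sequence considered, and held 1.83% of the peaks. This is 6.12 peaks per Mb, against 30.9 per Mb for the 16330 intergenic peaks within 20 kb of a gene, which here exclude the windows around annotated transcript ends. The ratio of the densities was 0.198 (95% interval 0.191 to 0.206). The decline with distance had no step at 20 kb. From 75.2 peaks per Mb at 0.6 to 2 kb, the density went to 15.4 at 10 to 20 kb, 10.1 at 20 to 30 kb, 5.81 at 50 to 100 kb and 2.98 at 200 to 500 kb (interval 2.47 to 3.58), and no 2 neighbouring intervals of these overlapped. The 51 Mb more than 500 kb from any gene held 4 peaks. The 5 peaks just inside the limit lay 20002 to 20025 bp from a gene and had 5 to 8 reads at the summit, and the 5 just outside it lay 19967 to 19997 bp away and had 5 to 9 reads.

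**Figure D1:**
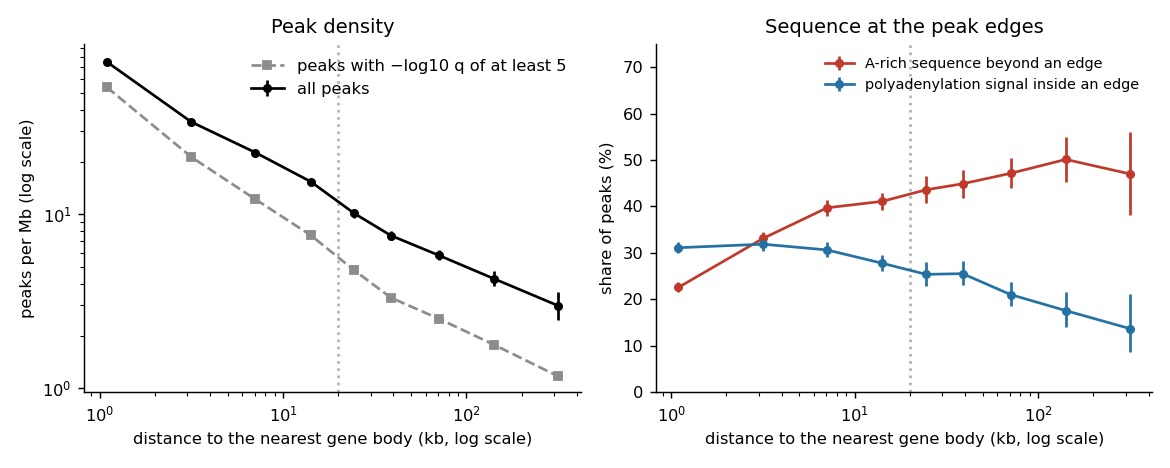
Left, peaks per Mb of sequence without unknown bases against distance to the nearest gene body, for all peaks and for those with −log10 q of at least 5 (both axes log). Right, share of peaks with A-rich sequence beyond an edge and with a polyadenylation signal inside an edge. Bars are 95% intervals and the dotted line marks 20 kb. Density falls from 75.2 to 2.98 per Mb while the A-rich share rises from 22.6% to 47.0% and the signal share falls from 31.1% to 13.7%.

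They were also low. Reads at the summit, meaning the number of extended reads stacked there as recovered from the deposited fold and −log10 p, had a median of 6 (quartiles 5 and 9) and a range from 3 to 68 over the 3638 peaks. The median was 10 for intergenic peaks within 20 kb, 9 for intronic peaks and 16 for peaks at annotated transcript ends. The study's methods do not state how reads with the same start were counted. If such reads were collapsed, heights at abundant sites are understated, and heights need not scale with RNA amount. Only 2.36% of the far intergenic peaks reached 20 reads, against 14.8% of the intergenic peaks within 20 kb (difference −12.4 points, interval −13.1 to −11.6). The peak caller's −log10 q was at least 5, the cutoff of the study, for 1612 far intergenic peaks (44.3%), where 69.3% of all peaks on these chromosomes passed. It was at least 20 for 80 of them (2.20%), where 6.48% of all peaks passed. The local background at the summit was 0.337 reads, its commonest value, or less for 73.7% of the far intergenic peaks and for 31.1% of those within 20 kb. Against so low a background a given q is reached with fewer reads. Their median width was 103 bp, close to the 100 bp to which each read was extended, and 71.6% were 110 bp wide or less.

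**Figure D2:**
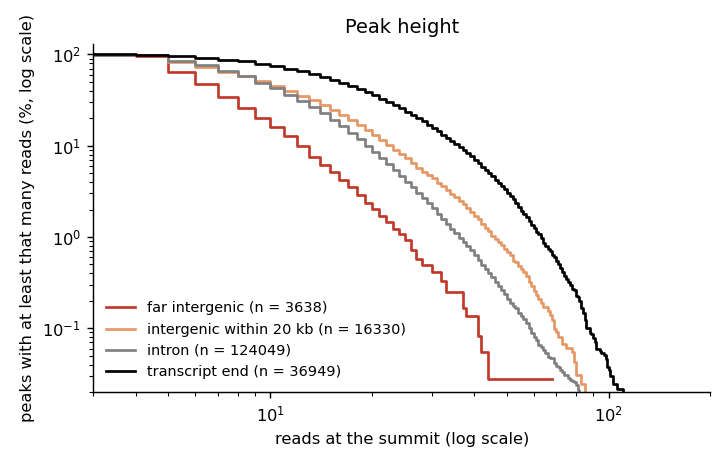
Share of peaks with at least a given number of reads at the summit (both axes log) for far intergenic peaks, intergenic peaks within 20 kb of a gene, intronic peaks and transcript-end peaks. The far intergenic curve lies below the others up to 50 reads, and its 2.36% at 20 reads compares with 38.6% for transcript ends.

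The bases around the peak edges showed what kind of priming site each peak could have. As the list gives no strand, both edges were read outwards, the right edge as for a plus-strand transcript and the left edge as for a minus-strand one. A signal was AATAAA or ATTAAA starting 10 to 40 bases inside an edge. A-rich meant at least 18 A in some 25 bases within 50 bp beyond an edge. A-rich sequence was the commoner feature. It flanked 45.7% of the far intergenic peaks (interval 44 to 47.3%), against 31.9% of intergenic peaks within 20 kb, 32.7% of intronic peaks and 10.6% of transcript-end peaks. At places set every 10 kb through the same far sequence, the share was 2.04%. With the study's stricter limit of 22 A in 25 bases the shares were 13.1% for far intergenic peaks, 8.38% within 20 kb and 0.210% of the places. The study used this limit to drop peaks that had such a stretch but none of its hexamers, with their reads. Whether the list used here precedes that step is not stated. The mirror stretch, at least 18 T of 25 read the same way, occurred at 1.13% of the far intergenic peaks and 2.08% of the places, so the excess was one of A read outwards.

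A signal was present at 23.1% of the far intergenic peaks (interval 21.8 to 24.5%). This was above the 11.2% of the far places by 11.9 points (interval 10.5 to 13.3), while the 30.5% of intergenic peaks within 20 kb was higher (difference −7.34 points, interval −8.86 to −5.78). Transcript-end peaks had a signal in 52.1%. The 12 hexamers of the study, searched here in the 100 bp inside either edge and not in its strand-specific window upstream of the peak, gave 57.0% for far intergenic peaks and 72.9% for the far places. It was thus met less often at the peaks than at arbitrary places, which were richer in A and T (median GC content 37.9% against 43.0%). AATAAA alone in the same window gave 26.5% against 19.6%. The position of the hexamer relative to the edge was not uniform. Between 10 and 40 bases inside the far intergenic edges, AATAAA starts were most frequent at 22 bases (0.756% of edges), near the 23 bases at which transcript-end peaks had their maximum of 1.82%, while the far places up to 500 kb from a gene reached at most 0.184% there. The highest share over all positions, 2.47% of edges, lay 2 bases inside the far intergenic edge, where transcript ends had 0.476%, and several positions just outside the edge were also above 0.756%, up to 0.99% at 6 bases. AATAAA there runs into the A-rich sequence beyond the edge, where A made up 45.6% of the first 20 bases and T 20.1%.

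**Figure D3:**
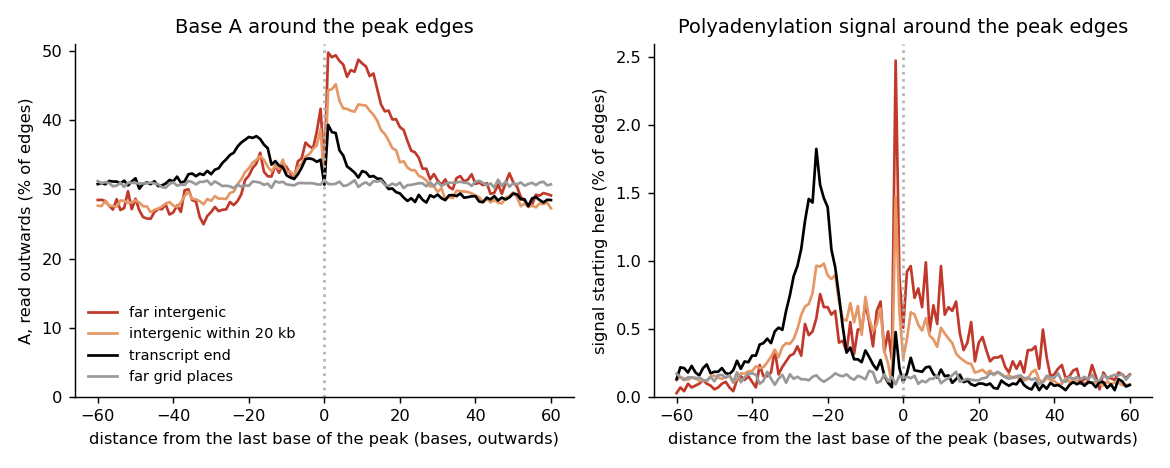
Share of peak edges with A (left) and with the start of the AATAAA signal (right) at each distance from the last base of the peak, both edges read outwards. Far places are those set every 10 kb and up to 500 kb from a gene. Far intergenic edges reach 49.8% A at the first base outside and have signal starts at 2.47% of edges 2 bases inside and 0.756% 22 bases inside, while transcript ends peak at 1.82% 23 bases inside.

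Taken by both features, 1503 far intergenic peaks (41.3%) were A-rich only, 683 (18.8%) had a signal only, 158 (4.34%) had both and 1294 (35.6%) had neither. Of the peaks with a signal only, 55.1% had −log10 q of at least 5 (interval 51.3 to 58.7%), against 38.4% of those that were A-rich only (interval 36.0 to 40.9%) and 45.1% of those with neither (interval 42.4 to 47.8%). The median was 7 reads for the first and the last and 6 for the A-rich ones. Of the 80 peaks with −log10 q of at least 20, 22 had a signal only, 13 were A-rich only and 42 had neither. By height, the A-rich share went from 51.5% at up to 5 reads to 46.7% at 6 to 9, 35.3% at 10 to 19 and 16.3% of the 86 peaks with 20 reads or more (interval 9.95 to 25.5%). The signal share went the other way, from 18.5% to 23.8%, 28.8% and 34.9%. Intergenic peaks within 20 kb had the same order in the A-rich share, from 47.1% to 12.9%. With distance from genes, the signal share of far intergenic peaks was 25.4% at 20 to 30 kb and 17.6% at 100 to 200 kb (intervals 22.9 to 28.0% and 14.1 to 21.6%). The A-rich share was 43.6% and 50.1%, with overlapping intervals (40.8 to 46.5% and 45.2 to 55.1%), and 47.0% at 200 to 500 kb.

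A majority of the far intergenic peaks belonged to a few repeated sequences. When the 100 bases around each summit were aligned with each other (80 bases or more at 80% identity or more), 1992 of 3638 peaks fell into 43 groups. Group 1 held 1234 peaks (33.9%) on all 23 chromosomes, and its sequence is the 3′ part of an Alu element ending in the A tail, named from its known sequence and not from a repeat annotation. Of these, 71.2% were A-rich and 6.73% had a signal, and their reads had a median of 6 and a maximum of 33. The same group took in 29.8% of intergenic peaks within 20 kb, 25.9% of intronic peaks, 8.41% of transcript-end peaks and 1.94% of the far places up to 500 kb from a gene. The excess over intergenic peaks within 20 kb was 4.09 points (interval 1.89 to 6.28). Group 3, with 173 peaks, was taken as another part of Alu, and 39.9% of it was A-rich. The element names given to this and the later groups likewise rest on known sequence and not on a repeat annotation.

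Group 2, the 3′ end of L1, set the far intergenic peaks apart more clearly. It held 265 of them (7.28%) against 1.87% of the intergenic peaks within 20 kb, a difference of 5.42 points (interval 4.46 to 6.40) and a ratio of 3.90, and 0.324% of the far places up to 500 kb from a gene. No share was computed for places within 20 kb of a gene, so the ratio is not adjusted for how common this sequence is there. The groups were also built from the far intergenic peaks alone. Of the members of group 2, 52.8% (interval 46.8 to 58.8%) were A-rich and 26.8% had a signal. Group 6, with 37 peaks on 16 chromosomes, was the reverse: 36 of the 37 had a signal and 0 were A-rich (interval up to 9.41%), and they had 5 to 16 reads. Their sequence is L1 read on the strand opposite to its coding strand. Groups 4, 5 and 7 had 68, 57 and 26 members, and group 8, with 24, was A-rich in 75%. The other 35 groups had 11 members or fewer. The 1646 peaks in no group had a signal in 35.1% (interval 32.8 to 37.4%) and were A-rich in 27.5%, and they included the tallest.

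A read from a repeated sequence cannot always be placed, and the study's mapping kept reads with up to 20 placements. A near-identical copy elsewhere, 95 or more matching bases in the 100 centred on the summit, was found for 42.0% of the far intergenic peaks (interval 40.4 to 43.6%), for 23.3% of those within 20 kb, for 13.5% of intronic peaks and for 11% of transcript-end peaks. It was 13.1% among the far places up to 500 kb from a gene and 20.3% among all far places, those over 500 kb away included. At least 20 such copies were found for 29.4% of the far intergenic peaks and 9.83% of those within 20 kb, and an identical copy for 13.2% and 7.57%. Identical copies were found for 4.91% of the far places up to 500 kb from a gene, 8.31 points fewer than for the peaks (interval 6.99 to 9.63), and for 12.3% of all far places (difference 0.917 points, interval −0.609 to 2.45). Where a read could have come from any of several copies, the position of the peak is uncertain. Among the 8 largest groups, copies were found for 83.8% to 100% of the peaks of groups 2 and 4 to 8, for 58.3% in group 1, for 62.4% in group 3, and for 13.4% of the peaks in no group.

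Copies included transcripts: 1076 far intergenic peaks (29.6%) matched a spliced transcript of another gene over at least 95 bases, and 70 of them had fewer than 20 copies in the genome. The 10 transcripts matched most often were matched through peaks with at least 20 copies each, mostly of group 1 or of groups 2 and 4 to 7. XACT, a long noncoding RNA that coats the X chromosome in early human cells, matched 521 peaks, HELLPAR 395, MFN1, a mitochondrial fusion GTPase, 272, and the pseudogenes of 7SL RNA (Metazoa_SRP), from which Alu derives, 262, 252 of them in group 1. The others were the unnamed genes ENSG00000280138 with 266 and ENSG00000279080 with 242, CDC42 with 261, LINC01206 with 252, and CCL5 and FOXK1 with 235 each. Among listed abundant RNAs, 7 cytosolic ribosomal protein genes matched, led by RPS20 with 159 peaks, all in group 1, RPS29 with 49, all in group 1, and RPS14 with 40, all in groups 2 and 4 to 7. RPL14 matched 7, RPS7 4, and RPL27A and RPLP1 1 each. The mitochondrial gene MT-RNR2, the large ribosomal RNA, matched 1 peak. RN7SL1, RN7SL2, RN7SK, RNU1-1, RNU2-1 and RNU6-1 matched 0.

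The 10 peaks of highest significance were a mixture, 3 of them in groups named as Alu. The highest −log10 q, 62.0, belonged to a peak at chr13:104228648-104228792 with 41 reads, in group 3, 94.5 kb from the nearest gene. The peak with the most reads, 68, lay at chr2:17185366-17185690, in AT-rich sequence (24.3% GC) without a copy. It stood 62.5 kb from RN7SKP168 and 325 kb from RAD51AP2, the nearest protein-coding gene. Of the other 8 in the first 10, the peaks at chr4:132528075-132528217 (37 reads) and chr10:127524755-127524883 (33 reads) matched the end of EEF1A1, which encodes the elongation factor that brings tRNAs to the ribosome, over 100 and 98 bases at 99% and 95.9% identity. Their 30-base stretches printed above carry the same ATTAAA. The peak at chrX:44794794-44794920 (32 reads) matched the end of ACTB, the cytoplasmic actin, at 99%. The peak at chr8:59970743-59970867 (30 reads) matched the end of ZNF667-AS1, a noncoding RNA, at 99% over 96 bases, and the one at chr16:61258606-61258738 (33 reads) matched JARID2, a subunit of the Polycomb complex PRC2, over 100 bases without a mismatch, but not within 200 bases of an annotated transcript end. The remaining 3 were chr19:47920373-47920536 (38 reads, group 3, next to SULT2A1), chr18:63063649-63063788 (30 reads, 59.6 kb from BCL2, which blocks apoptosis) and chr5:69702257-69702382 (33 reads, group 1, within the RefSeq pseudogene GUSBP3). Only the chr2 peak of these 10 had no near-identical copy. The chr13 peak had 58 copies, chr19 20, chr4 13, chr10 and chr5 8 each, chrX 6, chr8 2, and chr16 and chr18 1 each. The positions of these peaks can thus be uncertain.

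The EEF1A1 and ACTB matches led to a search for other copies of transcript ends among the 1754 far intergenic peaks outside the 8 largest groups (80 bases or more at 90% identity or more, within 200 bases of the 3′ end of an annotated transcript of another locus). There were 94 (5.36%, interval 4.40 to 6.51%), from 81 genes. Far places outside the same groups and up to 500 kb from a gene matched in 6.19% (interval 5.42 to 7.08%), so no excess in the share was detected. By height, the matches made up 16.9% of the 59 such peaks with 20 reads or more (interval 9.48 to 28.5%), 7.26% at 10 to 19 reads, 3.99% at 6 to 9 and 4.82% below. The peaks that led to the search are among the tallest, and without the 10 peaks of highest −log10 q, a subset set after seeing the data, the first share was 6 of 52 (11.5%, interval 5.40 to 23%), which overlaps that at 10 to 19 reads (interval 5 to 10.4%). A signal was present in 61.7% of the matches (interval 51.6 to 70.9%). Among the other peaks outside the groups it was present in 33.4% (interval 31.2 to 35.7%). Where the strand of a match's signal could be read, it was that of the matched transcript in 51 of 55 (92.7%). A copy of a transcript end can carry that transcript's signal on its strand, so the choice of matches favours both values. They were not computed for the far places that matched. Examples chosen after their values were seen, in order of height, were the ends of GANAB (28 reads), SEPTIN7 (26), FASN (24), RACGAP1 (22), WNK1 (21), GET1 (19) and DDX6 (18). Each was lower than the highest peak of the gene itself, which had 47 reads for GANAB, a glucosidase of the endoplasmic reticulum, 39 for SEPTIN7, a septin filament subunit, and 88 for FASN, the fatty acid synthase. EEF1A1 had 72 and ACTB 63. Heights at abundant genes may be understated, as said above for reads with the same start. ZNF667-AS1 was the exception among these genes, with 30 reads at the far intergenic copy and 19 at the highest peak of the gene.

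Neighbouring far intergenic peaks pointed the same way. Strand could be read, from a signal inside 1 edge only or A-rich sequence beyond 1 edge only, for 2301 peaks (63.2%), 845 plus and 812 minus from A-rich sequence and 414 plus and 384 minus from signals. Where both features gave a reading, it was the same in 124 of 154 (80.5%, interval 73.6 to 86.0%). In introns of genes on a single strand, the A-rich reading was that of the gene for 89.9% of 37807 peaks and the signal reading for 82.6% of 28587. Among far intergenic neighbours up to 10 kb apart, A-rich readings were the same in 161 of 191 pairs (84.3%, interval 78.5 to 88.8%), signals in 70 of 91 (76.9%, interval 67.3 to 84.4%), and an A-rich peak and a signal peak in 150 of 195 (76.9%, interval 70.5 to 82.3%). At 100 to 1000 kb these were 52.8% of 231 pairs, 64.9% of 37 and 52.7% of 167, with intervals that all contain 50%. In subsets chosen after seeing the data, without the 5 largest runs the values up to 10 kb were 81.5%, 75.3% and 75.1%. For peaks outside every sequence group they were 91.4% of 35, 74.6% of 67 and 72.8% of 81 pairs. There the A-rich readings were also the same in 12 of 12, 9 of 9 and 6 of 6 pairs at 10 to 20, 20 to 50 and 50 to 100 kb, in 71.4% of 28 at 100 to 1000 kb (interval 52.9 to 84.8%) and in 45.3% of 53 beyond. In the same subset and steps up to 100 kb, signals were the same in 13 of 16, 5 of 10 and 4 of 6 pairs. An A-rich peak and a signal peak had the same reading in 14 of 22, 8 of 18 and 6 of 13. The agreement up to 100 kb was thus limited to pairs of A-rich readings. Neighbouring pairs overlap in their members, so the intervals are too narrow by an unknown amount.

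**Figure D4:**
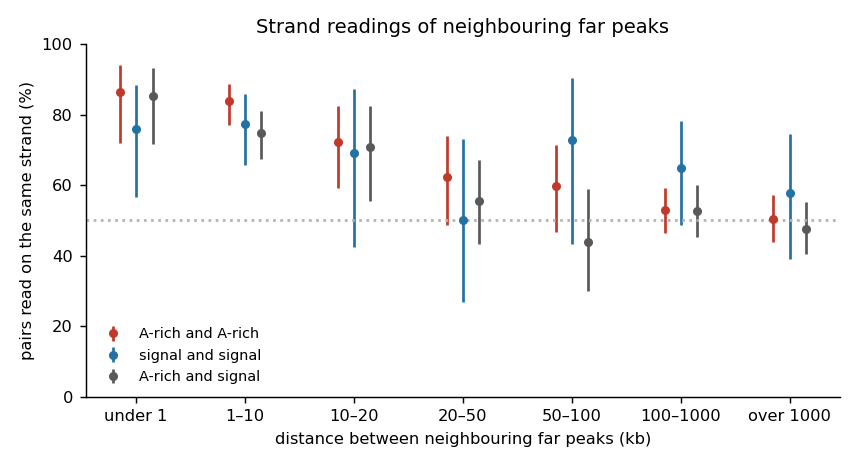
Share of pairs of neighbouring far intergenic peaks that were read on the same strand, by the distance between them, for pairs of A-rich readings, of signal readings and of 1 of each. Bars are 95% Wilson intervals and the dotted line is 50%. The 3 kinds of pair lie between 74.7% and 86.5% in the steps over the first 10 kb and near 50% beyond 100 kb for the pairs that include an A-rich reading.

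Far intergenic peaks were gathered in runs. Another lay within 10 kb of 47.0% of them (interval 45.4 to 48.6%), and the median distance to the next was 13.1 kb. Chaining neighbours up to 20 kb apart gave 2250 runs, of which 1681 were single peaks and 90 had 5 peaks or more, 783 peaks in all. Of the 90, 63 had at least 4 strand readings. Each peak gave 1 reading, from A-rich sequence or, without that, from a signal, so conflicts within a peak were not counted. In 36 of these runs every reading was on 1 strand, and 379 of the 414 readings (91.5%) were on the main strand of their run. The main strand is set by the same readings, so this share is at least 50% by construction. With few readings in a run it lies above 50% on average even for random strands. Mostly plus and mostly minus runs were about as many, 32 and 27, with 4 tied.

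The largest run spans 405.2 kb at chr6:120035789-120440992 and held 92 far intergenic peaks, 227 per Mb where the next 4 runs had 154 to 201 per Mb, with 5 to 24 reads each (median 10), and 72 of them had −log10 q of at least 5. All 33 A-rich readings and all 15 signal readings were plus, and outside the sequence groups 18 and 11 were plus and 0 minus. The nearest annotated genes were MIR3144, a microRNA gene 20.5 kb to the left, and the lncRNA ENSG00000286540, 21.5 kb to the right, both on the plus strand. The nearest protein-coding genes, MAN1A1 and TBC1D32, lay 686 and 638.5 kb away and are on the minus strand. No RefSeq gene body covered any of its peaks.

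Runs 2 and 5 lay on chromosome 12 between ALX1, a homeobox gene, and RASSF9. At chr12:85368927-85547621, 36 peaks with 3 to 18 reads had 11 A-rich readings on plus and 0 on minus, and 11 signals on plus and 2 on minus. The run starts 26 kb past the 3′ end of LINC02820, a plus-strand lncRNA that ends at 85342912 in GENCODE, and 24 of its peaks lie within the longer RefSeq body of that gene, which ends at 85490127. At chr12:85592472-85712864, 19 peaks with 3 to 14 reads had 7 A-rich readings and 5 signals, all on plus. RefSeq gene bodies covered 6 of these 19 peaks. Runs 3 and 4 were on chromosome 3, at chr3:117203134-117342577 with 23 peaks and chr3:117381585-117524109 with 22. Both lie upstream of LSAMP, a minus-strand gene for a neuronal adhesion protein, 63.7 and 242 kb from it. RefSeq gene bodies covered 14 of the 23 peaks of run 3 and 8 of the 22 of run 4. There the A-rich readings were 13 and 11 on minus and 0 on plus, while signals were few, 3 minus and 1 plus in run 3 and 1 of each in run 4. The 5 runs together held 192 peaks (5.28%). Strand could be read for 43 of 92, 21 of 36, 14 of 23, 12 of 22 and 10 of 19 peaks of runs 1 to 5, and the others had no reading.

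**Figure D5:**
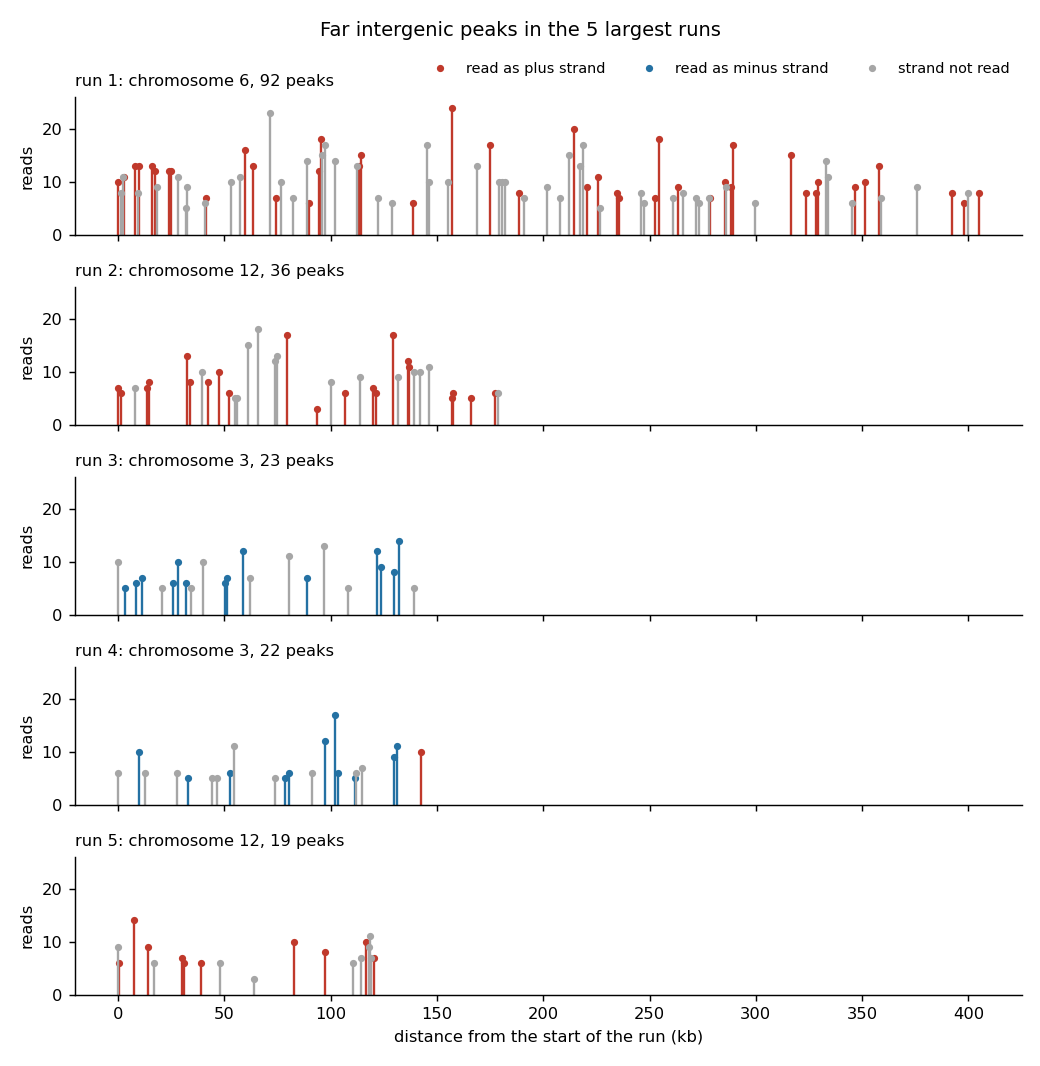
Reads at the summit of each far intergenic peak against its distance from the start of its run (kb), for the 5 largest runs, coloured by the strand read from A-rich sequence or, without that, from a signal. Strand was read for 43 of 92, 21 of 36, 14 of 23, 12 of 22 and 10 of 19 peaks of runs 1 to 5. Of the peaks with a reading, those of runs 1, 2 and 5 are almost wholly plus and those of runs 3 and 4 almost wholly minus. A signal that conflicts with the A-rich reading of its peak is not shown. Run 1 reaches 24 reads.

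Some of these places lie inside genes as RefSeq draws them on the same assembly. RefSeq gene bodies covered 701 far intergenic peaks (19.3%, interval 18 to 20.6%) and 11.2% of the far places, a difference of 8.03 points (interval 6.68 to 9.44). Of the 701, 544 were in lncRNA genes and 123 in protein-coding ones. After LINC02820 with 24, the RefSeq genes with the most were LOC105374140 on chromosome 3 with 20 (5 signals, all plus), LOC124909415 with 17 and PPARGC1A with 16. PPARGC1A, a coactivator of mitochondrial biogenesis, is on the minus strand. Its body reaches 24472905 on chromosome 4 in RefSeq and 23904089 in GENCODE, so RefSeq extends it on the 5′ side. Its peaks had a median of 5 reads. Peaks inside RefSeq genes had a signal in 27.4% (interval 24.2 to 30.8%) and peaks outside in 22.1% (interval 20.6 to 23.6%). −log10 q reached 5 in 49.2% and 43.1%.

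Noncoding neighbours were common, but not more so than at the far places. The nearest gene was an lncRNA for 35.6% of the far intergenic peaks and 36.2% of the places (difference −0.587 points, interval −2.31 to 1.16). It was a gene of another type, such as a pseudogene or small RNA gene, for 38.5% and 46.35% (difference −7.81 points, interval −9.57 to −6.03). A protein-coding gene was nearest for 25.9% of the peaks and 17.5% of the places, a difference of 8.40 points (interval 6.87 to 9.97). The nearest protein-coding gene lay over 100 kb away for 72.0% of the places against 52.4% of the peaks. The places were not matched to the peaks in distance from genes and include those over 500 kb away. Past the 3′ end of the nearest gene of any type lay 51.3% of the peaks and 52.2% of the places (difference −0.851 points, interval −2.66 to 0.959). Past the 3′ end of the nearest protein-coding gene lay 52.7% of the peaks and 49.9% of the places, a difference of 2.79 points (interval 0.973 to 4.59). Of the peaks past the 3′ end of their nearest gene, A-rich readings were on that gene's strand in 57.3% (interval 53.9 to 60.6%), and of those before its 5′ start in 49.8% (interval 46.3 to 53.2%). Relative to the nearest protein-coding gene these were 58.0% (interval 54.7 to 61.3%) and 54.1% (interval 50.7 to 57.5%), which overlap. Signals gave 55.2% and 52.0% for the nearest gene, with overlapping intervals.

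Among 26 listed genes of neuroblastoma identity and growth, 10 were the nearest protein-coding gene of at least 1 far intergenic peak, 39 peaks in all (1.07%), against 0.539% of the far places. The share of all protein-coding genes with such a peak was not counted, so 10 of 26 cannot be read as a trait of the listed genes. No interval was computed for these shares, and GATA3 and TBX3 held most of the 39 peaks. GATA3, a transcription factor of the sympathetic lineage, had 13, at 22 to 1170 kb and with up to 22 reads. TBX3, a T-box factor, had 10, at 328 to 550 kb with up to 23 reads. HAND1 and ISL1 had 4 each, SOX11 and ALK 2 each, and SOX4, TFAP2B, TCF3 and TCF4 1 each. MYCN, PHOX2A, HAND2, GATA2, TBX2, MEIS1, MEIS2, LMO1, INSM1, ID1, TEAD4, KLF7, LIN28B and TWIST1 had 0, where for MYCN and MEIS1 the intervals left out of chromosome 2 bear on the count.

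Chromosomes differed in density. Chromosome 22 had 12.7 far intergenic peaks per Mb of far sequence (73 peaks, interval 9.92 to 15.9), chromosome 6 had 9.82, chromosome 9 8.33, chromosome 12 7.92 and chromosome 10 7.82. Chromosomes X and 18 had the fewest, 3.72 per Mb each (intervals 3.20 to 4.30 and 2.98 to 4.58). Without the large runs, chromosome 6 had 7.34 and chromosome 12 5.56, so the places of both rested on these runs: chromosomes 9 and 10 then had more than either, as had chromosome 20 with 7.52. The copy number of each chromosome in this line was not measured here. The 3 peaks farthest from any gene, at chr7:60950652-60950751 (1325 kb), chr1:122229785-122229884 (649 kb) and chr2:93598845-93598944 (595 kb), each had 5 reads, and the first 2 had 47 and 584 near-identical copies.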

How the data were processed

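Poly(A) 3′-seq libraries (QuantSeq, reads starting at the poly(A) junction) were made from IMR-32 cells. Per the study's methods, reads were trimmed, mapped to GRCh38 with STAR 2.5.1b (up to 20 placements kept), merged over samples, and peaks were called once with MACS2 2.1.1 without a control, each read extended to 100 bp. The merged file is said to hold all samples, without naming them. The deposited list gives for each peak a score (not used), the fold enrichment at the summit as a ratio over the local background, the −log10 p-value and −log10 q-value by the authors' peak caller, and the summit offset. Per-library values are not in this list, so no test across samples was made.

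Reads at the summit and the background were solved from the deposited fold and −log10 p (largest misfit 0.000172), and checked on simulated data. Distances were taken from the summit to GENCODE release 44 gene bodies (62700 genes; the study used release 27). Transcript-end peaks lay from 200 bp before to 600 bp after an annotated end. RefSeq gene bodies were from GRCh38.p14. Hexamers and A-rich sequence were searched in the genome at both edges. Comparison places were set every 10 kb in the far sequence (59419 places of 103 bp). Alignments (blastn, BLAST+ 2.17.0) used all far intergenic peaks and evenly spaced subsets of 3265 intergenic, 3102 intronic and 3080 transcript-end peaks and 3714 places. Seeds were 32 bases for copies and spliced transcripts, 16 for transcript ends and shorter for the sequence groups. Neighbouring genes and RefSeq coverage were compared with 14855 places, not matched to the peaks in distance from genes. Shares have Wilson, differences Newcombe and densities exact Poisson 95% intervals. Peaks are not replicates.

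Named by rule were the 10 far intergenic peaks with the highest −log10 q, the 3 farthest from genes, the 5 largest runs, the 5 densest and 2 sparsest chromosomes, the 10 transcripts matched most, and the listed RNAs and neuroblastoma genes. The members and lists were chosen with earlier results of these data known, and the searches for neighbour strand and transcript ends were added after the peaks had been seen. Alternatives were other q cutoffs, distances, gene types, merging, and leaving out copied or A-rich peaks. Some genes and sequences are not reported here.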

Additional observations from a re-analysis of the deposited data

Results flagged for a closer look

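The 2 intervals of chromosome 2 that were left out held 81 peaks more than 20 kb from any gene body, which are not among the 3638 far intergenic peaks and enter only the totals over all peaks of the list. Of these, 50 lay between 14.5 and 16 Mb, with a median of 12 reads at the summit and up to 45, and 31 between 66.4 and 67.6 Mb, with a median of 11 and up to 74. The median over the 3638 far intergenic peaks was 6.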

How the results depend on the processing

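No paired analysis was possible because peaks were called on merged reads only, and no replicate could be left out for the same reason. The share of summits in masked repeats was not run because the reference used here carries no repeat mask. Of 51 alternatives, 12 left a value within its interval or a count within 1.5 times, and 39 moved it. The number of far intergenic peaks, 3638, became 1612 and 80 at −log10 q of at least 5 and 20, 1437 and 514 beyond 50 and 100 kb, 2111 without copied peaks, 1977 without A-rich ones and 6164 with only protein-coding and lncRNA genes counted. The density ratio to intergenic peaks within 20 kb, 0.198, became 0.141, 0.105, 0.136 (50 kb), 0.15 (copies), 0.158 (A-rich) and 0.221 (gene types). The median of 6 reads became 9 at −log10 q of at least 5 and 7 without copied or A-rich peaks. The share with 1 of 12 hexamers, 57.0%, became 61.6% and 66.3% at the q cutoffs, 52.3% beyond 100 kb, 68.8% without copies, 71.5% without A-rich peaks, 26.5% for AATAAA alone and 38.9% in the 40 bp window. The share with 22 A of 25, 13.1%, became 10.2% and 3.75% at the q cutoffs, 8.15% without copies and 45.7% at 18 A. The share with a copy, 42.0%, became 39.2% and 51.3% at the q cutoffs, 52.0% beyond 100 kb, 36.1% without A-rich peaks and 13.2% for identical copies. The share with another within 10 kb, 47.0%, became 40.3% and 2.5% at the q cutoffs, 31.5% beyond 100 kb, 54.8% without copies, 41.0% without A-rich peaks and 61.5% at 50 kb. The lower value at −log10 q of at least 20 follows from the 80 peaks left. The cause of the other shifts was not tested. Heights of 5 reads, which 35.1% of the peaks did not exceed, allow no ranking among them.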

Other observations

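The tallest far intergenic peak had 2 neighbours. At chr2:17180836-17180944 and chr2:17182950-17183056, each with 26 reads, and at chr2:17185366-17185690, with 68 reads, the local background was 4.01, 3.89 and 3.42 reads, where the median far intergenic peak had 0.337. All 3 lie within 5 kb. The copy number of this stretch was not measured here.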
